A study of Mus musculus with 32 samples.

Results

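The CREB family and its coactivators comprised 8 of the 17757 genes in the count table: the transcription factors Creb1, Atf1 and Crem, the acetyltransferases Crebbp (CBP) and Ep300 (p300), and the CREB-regulated transcription coactivators Crtc1, Crtc2 and Crtc3. They were taken by gene symbol, because the study placed CREB downstream of a receptor for extracellular aspartate, and each of the 8 was found once in the table. The data came from polysome profiling of 4T1 cells, a mouse mammary carcinoma line, grown as spheroids for 5 days in a medium that mimics the nutrients of the lung. All cells carried a lentiviral shRNA vector and were selected as polyclonal, not clonal, lines. ASP shSCR cells carried a scrambled shRNA and received 700 µM aspartate, NoASP shSCR cells carried the same shRNA without added aspartate, and ASP shGRIN2D and ASP shDHPS cells received aspartate with an shRNA against Grin2d, a subunit of the NMDA receptor, or Dhps, the first enzyme of eIF5A hypusination. Each condition had 4 spheroid pellets, and each pellet gave a polysomal library (mRNA on more than 3 ribosomes) and a sub-polysomal library, so that there were 32 libraries.

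CREB proteins are basic leucine zipper factors that bind the cAMP response element. Calcium or cAMP activates kinases such as protein kinase A, the calmodulin kinases and the RSK and MSK kinases, which phosphorylate CREB, and the phosphorylated form recruits CBP and p300, which acetylate histones. CRTC proteins enter the nucleus when calcineurin removes phosphates that the salt-inducible kinases put on them, and then bind CREB. NMDA receptors admit calcium, which is the textbook route from a glutamate-type receptor to CREB in neurons. All of these steps act on proteins, whereas the libraries measured mRNA and how it was distributed over ribosomes. Crem also encodes the repressor ICER from an internal promoter, which was not separated from the full-length mRNA in counts per gene.

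The response element that CREB binds has the full form TGACGTCA, and its shorter core, TGACG or the reverse complement CGTCA, is contained in the full form. RefSeq promoter windows of GRCm38.p6, from 250 bases before to 50 after a start site, were given for 6 of the 8 members (all but Crem and Crtc2), and 1 of these 6, Atf1, held the core and none held the full form. Over all 32851 windows, 1.79% held the full form and 20.8% the core on either strand, and among genes of the count table with a window these shares were 3.43% and 33.9%. Of 18 textbook CREB-responsive genes, 14 had a window, and 13 of them held the core and 2, Areg and Dusp1, the full form. The 5 windows of 30 bases are shown on the strand of the gene, with the element in capitals, to set the only match in a member beside 1 match in each of 4 responsive genes, all of which held more than 1. They lie at chr15:100227756-100227785 for Atf1, chr12:85473811-85473840 for Fos, chr15:101266793-101266822 for Nr4a1 and chr5:91139527-91139556 for Areg, all on the plus strand, and at chr17:26508597-26508626 on the minus strand for Dusp1.
Atf1: cgtgaccacgcggTGACGcagcacgccggc
Fos: cagttccgcccagTGACGtaggaagtccat
Nr4a1: gcccctctccatgCGTCAcggagcgcttaa
Areg: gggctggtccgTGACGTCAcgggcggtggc
Dusp1: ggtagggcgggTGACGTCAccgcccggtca
The element began 90 bases before the start in Atf1 and 66, 40, 61 and 143 bases before it in Fos, Nr4a1, Areg and Dusp1. Dohh, the second hypusination enzyme, which the study linked to CREB, held neither form in its window. The study drew that link from predicted transcription factor targets and from a CREB inhibitor that lowered Dohh expression. A search for exact letters in 1 short window does not bear on it. The matches shown here are of letters and were not tested as binding sites.

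The libraries held between 12870563 and 25639437 counts (median 18168765). On a line from the mean sub-polysomal profile (0) to the mean polysomal profile (1) of the other conditions, over 11046 genes with 10 or more counts throughout, the 16 sub-polysomal libraries lay between -0.11 and 0.16 and 15 polysomal libraries between 0.78 and 1.27. Replicate 1 of ASP shSCR had a polysomal library at 0.37, apart from both. Values without this pellet are given beside several of the differences below. The epithelial markers of the line were abundant, with medians of 1088 CPM (counts scaled to library size by TMM) for Krt8, 896 for Krt18, 716 for Krt7, 497 for Epcam, 182 for Cdh1 and 111 for Cldn7. Ptprc, which marks leukocytes, had at most 21 counts in any library and Pecam1, an endothelial marker, at most 12, while Cd68 and the fibroblast marker Pdgfra had up to 472 and 621. In the sub-polysomal fraction 3 of these 6 epithelial markers (Krt8, Krt18 and Krt7) were called higher in ASP shSCR than in ASP shDHPS, with a median log2 difference of 0.64 over the 6, and 1 (Krt7) than in ASP shGRIN2D, with a median of 0.71, where 5 of 6 had an unadjusted p under 0.05. Over all genes these medians were -0.008 and 0, and 1.41% and 0.315% of all genes were called in these comparisons. Against ASP shGRIN2D 11.0% of all genes had an unadjusted p under 0.05. Of the epithelial markers, 0 of 6 were called against NoASP shSCR or in the polysomal fraction. Their part in the differences between these conditions was not tested. Cd3e, Itgam, Cdh5, Kdr, Dcn, Lum and the neuronal markers Snap25, Rbfox3 and Syt1 were not in the table.

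The silenced genes were lower in the lines labelled for them. Dhps had 33.2 to 43.3 sub-polysomal CPM in ASP shSCR and 8.96 to 10.8 in ASP shDHPS, with no overlap, and the difference was 2.01 on the log2 scale (edgeR quasi-likelihood test, adjusted p = 1.11e-08). In the polysomal fraction the Dhps difference was 1.64 (adjusted p = 0.0167), which passed the threshold of 0.05 in 5 of 8 fits that left out 1 library and not without ASP shSCR replicate 2 (1.48), ASP shDHPS replicate 1 (1.59) or ASP shDHPS replicate 3 (1.63). Grin2d was far less abundant, with 56 to 126 sub-polysomal counts in ASP shSCR and 30 to 56 in ASP shGRIN2D. Its CPM did not overlap between these conditions in either fraction, yet the log2 differences of 0.88 sub-polysomal and 1.14 polysomal did not pass the test (adjusted p = 0.232 and 0.263).

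All 8 members were detected in every library. Counts ran from 42 to 175 for Crem, from 175 to 700 for Crebbp and from 562 to 3328 for Crtc2. Per kilobase of the median transcript length, the sub-polysomal order in ASP shSCR was Atf1 at 104 ± 9.86 CPM per kilobase (SD, n = 4), Crtc2 at 65.6 ± 9.12, Crtc3 at 53.0 ± 3.21, Crtc1 at 48.9 ± 2.94, Creb1 at 41.4 ± 14.1, Ep300 at 30.3 ± 9.46, Crebbp at 10.2 ± 0.639 and Crem at 5.17 ± 1.16. Creb1 did not differ from its neighbours Crtc1 and Ep300 beyond these spreads, whereas Crebbp and Crem lay apart at the low end. The order depended on the length used: with the longest transcript, Crtc2 (49.2 CPM per kilobase) stood above Atf1 (26.5), followed by Creb1 (7.02), Crtc3 (6.99), Crtc1 (4.15), Ep300 (2.45), Crebbp (1.83) and Crem (1.80). The plot of levels by library shows every value.

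**Figure D1:**
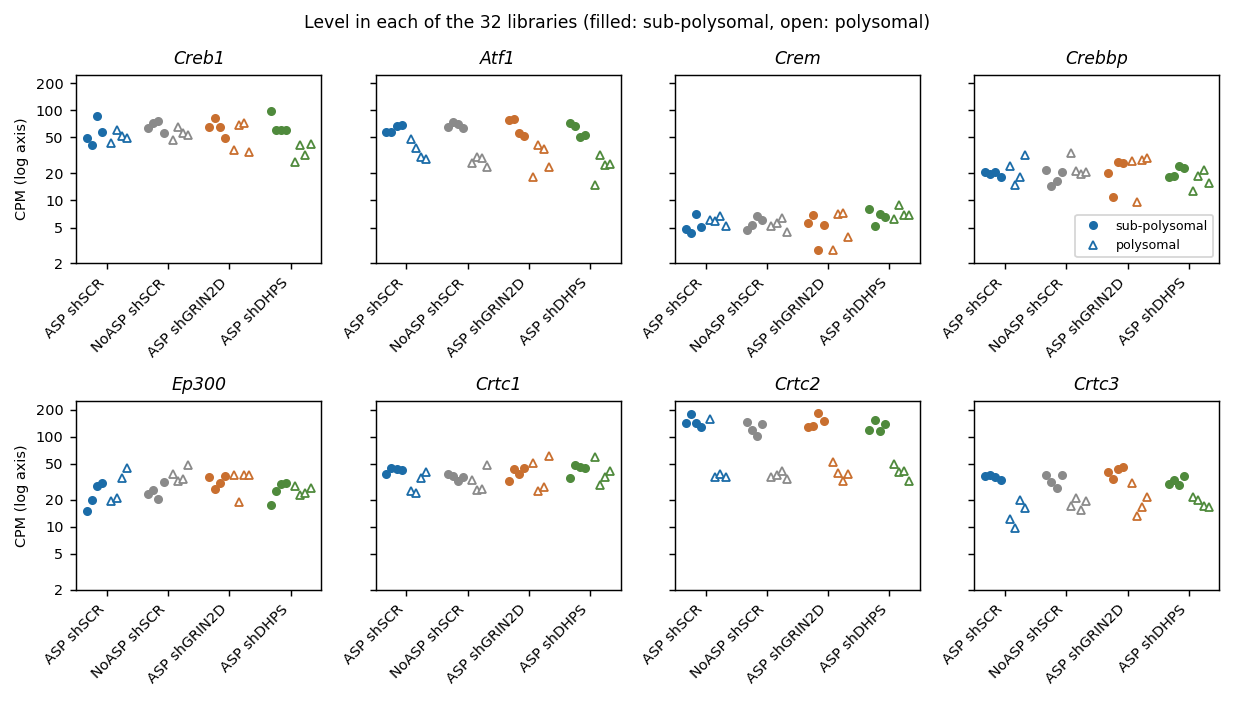
Normalized level (CPM, log axis) of each member in the 32 libraries, by condition, with filled circles for sub-polysomal and open triangles for polysomal libraries. Atf1, Crtc2 and Crtc3 sit lower in the polysomal libraries in all conditions, apart from the Crtc2 value of 158 CPM in ASP shSCR replicate 1, and no member separates ASP shSCR from another condition in both fractions.

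The members divided by how their mRNA was spread over ribosomes. The measure was the log2 ratio of polysomal to sub-polysomal CPM within a pellet, where 0 is an equal normalized level in both fractions. Atf1, Crtc2 and Crtc3 were called lower on polysomes in each of the 4 conditions, Creb1 was called lower in ASP shDHPS, Ep300 was called higher in NoASP shSCR, and Crem, Crebbp and Crtc1 were not called in any (edgeR quasi-likelihood test on pellets, adjusted p over all genes). In ASP shSCR 3 members were lower and 0 higher, beside 18.9% and 20.8% of all genes. In NoASP shSCR 3 were lower and 1 higher (20.6% and 23.7% of all genes), in ASP shGRIN2D 3 were lower and 0 higher (20.4% and 23.0%), and in ASP shDHPS 4 were lower and 0 higher (21.3% and 21.8%). Over all genes, 14.2% were lower in all 4 conditions, as 3 of the 8 members were, and 11.5% had a ratio below 0 in all 16 pellets, as 2 members had. The median ratio of the members was -0.33, -0.22, -0.21 and -0.55 in the order of conditions above, and that of all genes -0.04, 0, 0 and -0.09. Among the 10909 genes with a mean of at least 50 counts, the median pellet ratio was 0.12, 0.19, 0.16 and 0.08.

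**Figure D2:**
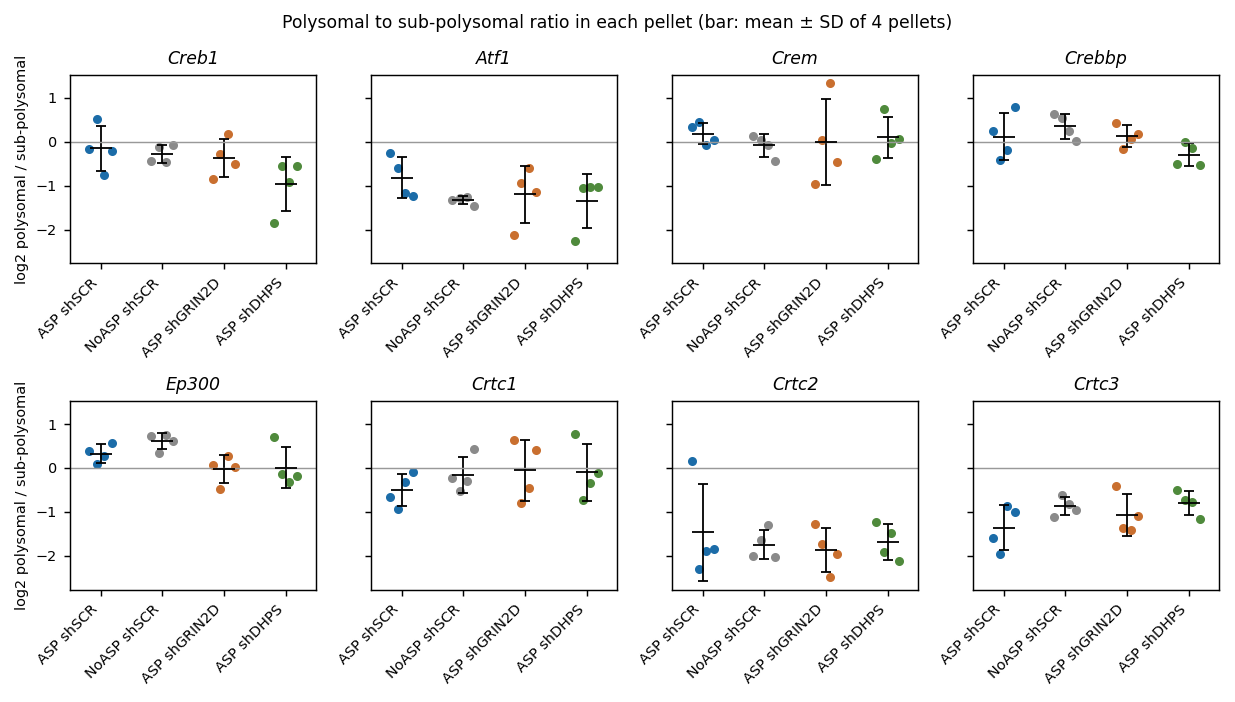
Log2 polysomal to sub-polysomal ratio of each member in the 16 pellets, by condition (points), with mean ± SD of 4 pellets (bars). Atf1 and Crtc3 lie below 0 in all 16 pellets and Crtc2 in 15, with ASP shSCR replicate 1 at 0.16 as its only value above 0, whereas Crem and Crebbp lie around 0.

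Creb1 (ENSMUSG00000025958; chr1:64532645-64604548, plus strand, GRCm38) encodes the founding CREB factor. In ASP shSCR its ratio was -0.17, 0.52, -0.75 and -0.21 in replicates 1 to 4, and in NoASP shSCR it was -0.44, -0.13, -0.46 and -0.07. In ASP shGRIN2D the ratio was -0.85, -0.28, 0.17 and -0.52, and in ASP shDHPS it was -1.85, -0.56, -0.92 and -0.55. The ratio was thus below 0 in 14 of 16 pellets, the exceptions being 1 pellet each of ASP shSCR and ASP shGRIN2D, and it was lowest in ASP shDHPS replicate 1. In ASP shDHPS its mean of -0.97 ± 0.61 (SD, n = 4) passed the test (log2 ratio -0.96, SE 0.22, adjusted p = 0.000615), also in all 4 fits without 1 of its pellets (-1.11 to -0.68). In the other conditions the ratio of -0.15, -0.27 and -0.37 did not pass (adjusted p = 0.618, 0.32 and 0.176). The difference between ASP shSCR and ASP shDHPS did not pass either, as given below.

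Atf1 (ENSMUSG00000023027; chr15:100227819-100261244, plus strand, GRCm38), a close relative of CREB that forms heterodimers with it, had 51.0 to 79.7 CPM in the 16 sub-polysomal libraries and 14.9 to 48.0 in the 16 polysomal ones, so that the fractions did not overlap. Its ratio in ASP shSCR was -0.27, -0.60, -1.16 and -1.24. It was -1.32, -1.29, -1.27 and -1.46 in NoASP shSCR, the tightest group of any member (SD 0.085), and ranged from -2.12 to -0.59 in ASP shGRIN2D. In ASP shDHPS replicate 1 stood at -2.26, below the other pellets at -1.06, -1.04 and -1.04. The log2 ratio was -0.82 (SE 0.22, adjusted p = 0.00428) in ASP shSCR, -1.33 (SE 0.22, adjusted p = 2.01e-05) in NoASP shSCR, -1.19 (SE 0.23, adjusted p = 8.98e-05) in ASP shGRIN2D and -1.34 (SE 0.23, adjusted p = 2.39e-05) in ASP shDHPS. Without ASP shSCR replicate 1 the first of these was -1.07 (adjusted p = 0.000512).

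Crem (ENSMUSG00000063889), the third CREB factor, had 2.81 to 8.85 CPM over all 32 libraries. Its mean ratio was 0.18 ± 0.24 in ASP shSCR, -0.09 ± 0.26 in NoASP shSCR, -0.01 ± 0.98 in ASP shGRIN2D and 0.10 ± 0.47 in ASP shDHPS (SD, n = 4 each). The wide spread in ASP shGRIN2D came from replicate 1 at -0.95 and replicate 3 at 1.33, where Crem had 58 and 144 polysomal against 120 and 42 sub-polysomal counts. The SE of its ratio was between 0.27 and 0.28 in each condition, as was that of Crtc2 with far more counts. Among the 3 factors the order within a pellet was steady: Creb1 and Crem each stood above Atf1 in 16 of 16 pellets, by 0.73 ± 0.39 and 1.22 ± 0.39 on the log2 scale (SD, n = 16), and Crem stood above Creb1 in 13.

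Crebbp (ENSMUSG00000022521; chr16:4081328-4213997, minus strand, GRCm38) and Ep300 (ENSMUSG00000055024; chr15:81585351-81652077, plus strand) encode paralogous acetyltransferases of about the same domain makeup. Crebbp had a mean ratio of 0.11 ± 0.53 in ASP shSCR, 0.35 ± 0.28 in NoASP shSCR, 0.13 ± 0.25 in ASP shGRIN2D and -0.30 ± 0.26 in ASP shDHPS, where all 4 pellets were below 0. None of these passed the test (adjusted p between 0.133 and 0.69). Ep300 had ratios of 0.38, 0.08, 0.27 and 0.58 in ASP shSCR and of 0.72, 0.35, 0.75 and 0.61 in NoASP shSCR, all above 0. In ASP shGRIN2D they were 0.07, -0.47, 0.28 and 0.03, and in ASP shDHPS 0.69, -0.15, -0.33 and -0.19. Only the NoASP shSCR ratio of 0.61 (SE 0.18, adjusted p = 0.00612) passed, and it did so in all 4 fits without 1 of its pellets (0.56 to 0.69). The ASP shSCR ratio of 0.33 did not (adjusted p = 0.15), nor did those of -0.02 and 0.01 in the silenced lines (adjusted p = 0.953 and 0.996). Within a pellet Ep300 stood above Crebbp in 9 of 16 pellets, by 0.16 ± 0.42, so that the order of this pair was not steady.

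The CRTC genes differed from each other more than the CBP and p300 pair. Crtc1 (ENSMUSG00000003575; chr8:70382355-70439579, minus strand, GRCm38) had mean ratios of -0.50 ± 0.37 in ASP shSCR, -0.16 ± 0.41 in NoASP shSCR, -0.05 ± 0.69 in ASP shGRIN2D and -0.10 ± 0.64 in ASP shDHPS (SD, n = 4 each). None passed the test, with an adjusted p of 0.0934 in ASP shSCR, where all 4 pellets were below 0, and DESeq2 called that one at -0.58 (adjusted p = 0.047).

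Crtc2 (ENSMUSG00000027936; chr3:90254163-90264125, plus strand, GRCm38), the coactivator best known from hepatic gluconeogenesis, had 103 to 181 CPM in the sub-polysomal libraries. In 15 polysomal libraries it had 31.98 to 52.59 CPM, and in ASP shSCR replicate 1 it had 158 CPM, from 2800 counts beside 719 to 847 in the other polysomal libraries of that condition. Its ratio was 0.16 in that pellet and -2.30, -1.89 and -1.84 in the other ASP shSCR pellets. It was -2.00, -1.64, -1.31 and -2.02 in NoASP shSCR, -1.27, -1.73, -2.48 and -1.97 in ASP shGRIN2D, and -1.23, -1.91, -1.47 and -2.13 in ASP shDHPS. The log2 ratio in ASP shSCR was -1.50 (SE 0.28, adjusted p = 0.000118), and -2.08 without replicate 1 (adjusted p = 1.07e-08). In the other conditions it was -1.75, -1.86 and -1.68 (SE 0.27 to 0.28, adjusted p = 8.25e-06, 3.53e-06 and 1.39e-05). Among genes with a mean of at least 50 counts, 6.01% had a lower mean ratio over the 16 pellets than Crtc2 (-1.69 ± 0.61). For Atf1 (-1.17 ± 0.50) and Crtc3 (-1.02 ± 0.41) these shares were 13.5% and 16.6%.

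Crtc3 (ENSMUSG00000030527; chr7:80586627-80688877, minus strand, GRCm38) had 27.0 to 45.7 CPM in the sub-polysomal and 9.67 to 30.6 in the polysomal libraries. Its ratio was -1.60, -1.96, -0.86 and -1.01 in ASP shSCR and -1.11, -0.60, -0.81 and -0.95 in NoASP shSCR. It was -0.40, -1.36, -1.42 and -1.10 in ASP shGRIN2D and -0.50, -0.73, -0.77 and -1.16 in ASP shDHPS, so that the conditions overlapped. The log2 ratio passed the test in each, at -1.36 (adjusted p = 5.91e-06), -0.87 (0.000608), -1.07 (6.06e-05) and -0.79 (0.00155). Within a pellet, Crtc1 stood above Crtc3 in 16 of 16 pellets (by 0.82 ± 0.43) and above Crtc2 in 15 (by 1.48 ± 0.78), and Crtc3 stood above Crtc2 in 15 (by 0.67 ± 0.69). The exception was in both cases ASP shSCR replicate 1.

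The study asked whether aspartate, acting through the receptor subunit and hypusination, changed which mRNAs were translated. For that, the ratios in ASP shSCR were compared with those of each other condition. The 3 comparisons share the ASP shSCR libraries and are not independent of each other. No member passed the test in any of them: 0 of 8 differed between ASP shSCR and NoASP shSCR, where 0.00% of all genes were called, 0 of 8 between ASP shSCR and ASP shGRIN2D (0.00%), and 0 of 8 between ASP shSCR and ASP shDHPS (0.208%, 37 genes). At an unadjusted p under 0.05 the counts were 0, 0 and 1 members, beside 1.93%, 3.22% and 13.6% of all genes, and DESeq2 also called 0 members in each. The median difference of the members was -0.06, 0.21 and 0.26, and that of all genes -0.02, -0.01 and 0.01. The intervals, not the absence of a call, show what could have been missed: they reached from -1.13 to 1.43 over all members and comparisons.

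**Figure D3:**
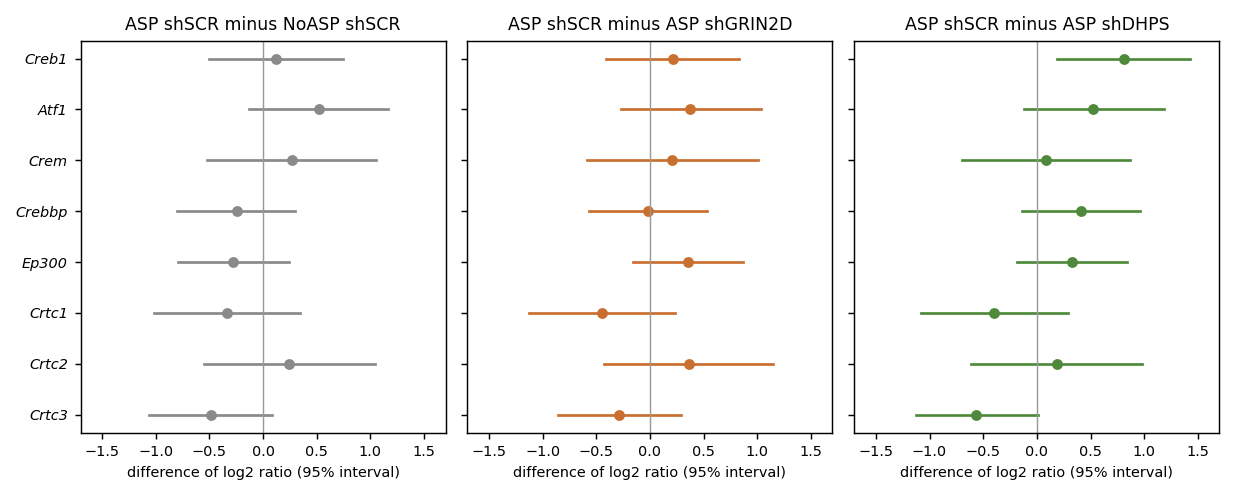
Difference of the log2 polysomal to sub-polysomal ratio, ASP shSCR minus each other condition, with its 95% interval from the edgeR fit (points and lines). Creb1 against ASP shDHPS, at 0.81, is the only interval that leaves out 0, and its adjusted p was 0.225.

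With aspartate against without it, the differences of the CREB factors were 0.12 for Creb1 (95% interval -0.50 to 0.74), 0.52 for Atf1 (-0.13 to 1.16) and 0.27 for Crem (-0.52 to 1.05). All 4 Atf1 ratios in ASP shSCR, -1.24 to -0.27, lay above the 4 in NoASP shSCR, -1.46 to -1.27. It was the only member without overlap, beside 1.76% of all genes, and without ASP shSCR replicate 1 the difference was 0.32. The acetyltransferases differed by -0.25 (Crebbp) and -0.28 (Ep300), and the coactivators by -0.34 (Crtc1), 0.25 (Crtc2) and -0.49 (Crtc3). The Crtc2 value turned to -0.29 without ASP shSCR replicate 1. Over the fits that each left out 1 pellet, the differences ran from -0.10 to 0.32 (Creb1), 0.32 to 0.66 (Atf1) and 0.15 to 0.35 (Crem) among the factors, from -0.48 to -0.069 (Crebbp) and -0.36 to -0.19 (Ep300) in the acetyltransferases, and from -0.48 to -0.15 (Crtc1), -0.29 to 0.54 (Crtc2) and -0.66 to -0.28 (Crtc3) in the coactivators. The low end of Creb1 and the high ends of Crebbp and Crtc3 came without ASP shSCR replicate 2, and the low end of Crem and the high end of Crtc1 without NoASP shSCR replicate 4. Every member had an adjusted p that rounded to 1.

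Against ASP shGRIN2D, the differences were 0.21 for Creb1, 0.38 for Atf1, 0.21 for Crem, -0.02 for Crebbp, 0.35 for Ep300, -0.45 for Crtc1, 0.36 for Crtc2 and -0.29 for Crtc3, again each with an adjusted p of 1. No member was free of overlap, beside 1.92% of all genes. Without ASP shSCR replicate 1 the value of Crtc2 was -0.19, that of Atf1 0.16 and that of Crem 0.12. Over all fits that left out 1 pellet, they ran from -0.024 to 0.41 (Creb1), 0.12 to 0.58 (Atf1) and -0.073 to 0.64 (Crem) among the factors, from -0.25 to 0.14 (Crebbp) and 0.20 to 0.45 (Ep300) in the acetyltransferases, and from -0.71 to -0.17 (Crtc1), -0.19 to 0.63 (Crtc2) and -0.46 to -0.016 (Crtc3) in the coactivators. Atf1, Crem, Crtc1 and Crtc3 were nearest to 0 or past it without ASP shGRIN2D replicate 1, and Ep300 was nearest without replicate 2 of that condition. Creb1 and Crebbp changed sign without ASP shSCR replicate 2, and Crebbp did so with the normalization too.

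Against ASP shDHPS, the largest difference was that of Creb1, 0.81 (SE 0.30, 95% interval 0.19 to 1.43, unadjusted p = 0.0129, adjusted p = 0.225). Its ratios in the 2 conditions overlapped, since ASP shSCR replicate 3 at -0.75 lay below ASP shDHPS replicates 2 and 4 at -0.56 and -0.55. Without ASP shDHPS replicate 1, which had the lowest ratio, the difference was 0.52, and after a smooth trend on transcript length and GC content over all genes was removed it was 0.12. The other factors differed by 0.53 (Atf1) and 0.09 (Crem; -0.25 with the trend removed), Crebbp by 0.41 and Ep300 by 0.33, and the coactivators by -0.40 (Crtc1), 0.18 (Crtc2; -0.37 without ASP shSCR replicate 1) and -0.56 (Crtc3, adjusted p = 0.373). With 1 pellet left out, the values ran from 0.52 to 1.01 (Creb1), 0.23 to 0.67 (Atf1) and -0.078 to 0.30 (Crem) among the factors, from 0.18 to 0.57 (Crebbp) and 0.21 to 0.55 (Ep300) in the acetyltransferases, and from -0.60 to -0.10 (Crtc1), -0.37 to 0.46 (Crtc2) and -0.73 to -0.38 (Crtc3) in the coactivators. The low ends of Creb1, Atf1 and Crem and the high end of Crtc1 came without ASP shDHPS replicate 1, the low end of Crebbp without ASP shSCR replicate 4 and that of Ep300 without ASP shDHPS replicate 3, and without ASP shSCR replicate 1 Atf1 was at 0.31 and Crem at -0.002. No member was free of overlap, beside 6.86% of all genes.

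The members' ratios were correlated with each other from pellet to pellet, some pairs positively and others negatively. Creb1 and Atf1 had a Pearson r of 0.72 over the 16 pellets and Atf1 and Crem one of 0.72, Crtc1 and Crtc3 one of 0.59, and Atf1 one of -0.81 with Crtc1 and of -0.82 with Crtc3. The pairs of Crtc2 depended on 1 pellet. Its r was 0.127 with Crtc3, -0.001 with Atf1 and -0.309 with Creb1. Without ASP shSCR replicate 1 these were 0.78, -0.751 and -0.721. Each pellet's 2 libraries entered all members' values, so these are descriptions of shared pellets. In each pellet the ratio was also correlated across 10850 genes with the GC content of the longest transcript, and this r ran from -0.38 (ASP shSCR replicate 2) to 0.21 (ASP shDHPS replicate 1). Creb1, with 39.6% GC the most AT-rich of the members, had a ratio with an r of -0.92 with this value over 16 pellets. Atf1 (45.2% GC) had -0.64 and Crem (43.2%) -0.49. Crebbp (51.7%) and Ep300 (51.1%) had -0.21 and -0.04, and Crtc1 (56.5%), Crtc2 (54.5%) and Crtc3 (57.0%) had 0.60, 0.31 and 0.69. The same pellet ratios entered both sides of these correlations, which are descriptions. The value of Crtc2 was 0.65 without ASP shSCR replicate 1. The part of base composition in the Creb1 difference was not tested beyond the trend-corrected value above.

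**Figure D4:**
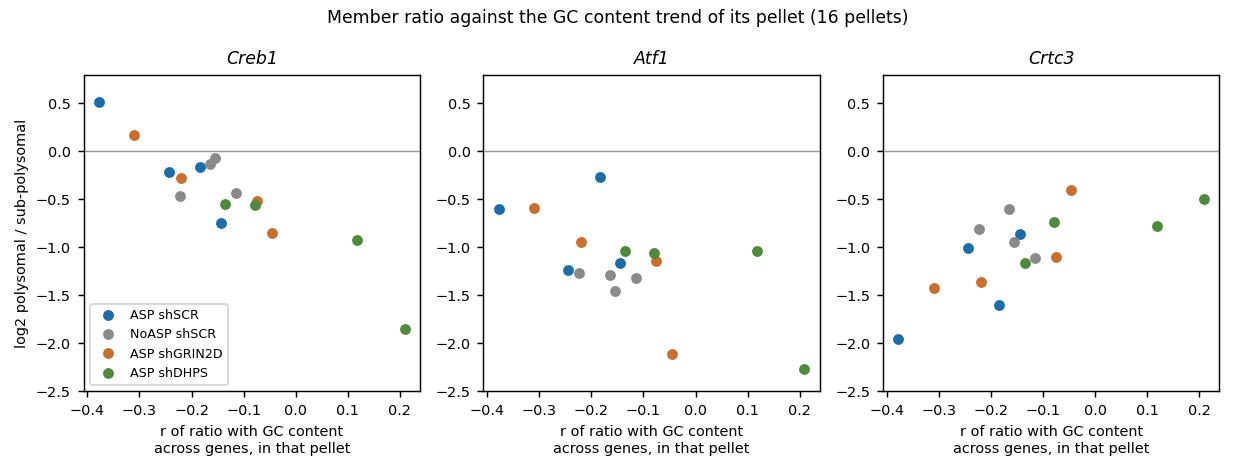
Log2 polysomal to sub-polysomal ratio of Creb1, Atf1 and Crtc3 in each of the 16 pellets (points, colored by condition) against the correlation, in that pellet, of the ratio with GC content across 10850 genes. Creb1 falls along the trend (r = -0.92), Atf1 falls more loosely (r = -0.64) and Crtc3 rises (r = 0.69), and ASP shDHPS replicate 1 holds the far right of each panel.

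The genes with the most similar ratios over the 16 pellets, among 10908 genes with a mean of at least 50 counts, were Dynlt3 (r = 0.95) and Ivns1abp (0.94) for Creb1, Fam177a (0.98) and Mtfr1 (0.97) for Atf1, and M6pr (0.85) and Fam72a (0.84) for Crem. For Crebbp they were Zswim6 (0.88) and Zfhx3 (0.83), and for Ep300 Cdk12 (0.80) and Kmt2a (0.77). For the coactivators they were Aacs (0.97) and Ercc2 (0.96) for Crtc1, Dmwd (0.97) and Pgs1 (0.97) for Crtc2, and Sh3pxd2b (0.95) and Pde4a (0.91) for Crtc3. The values for Crtc2 include ASP shSCR replicate 1, the only pellet where its ratio was above 0 (0.16). No member was among the closest pair of another.

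The level within 1 fraction was compared next, since the ratio does not show in which fraction an mRNA changed. Such a level is relative to the other mRNAs of that fraction, and a move between fractions also changes it. Total abundance of an mRNA was therefore not measured. In bulk libraries, fewer cells with a transcript and less transcript per cell cannot be told apart. Sub-polysomal levels differed by -0.45 to 0.25 on the log2 scale over the 8 members and 3 comparisons, and 0 of 8 passed in each, beside 0.00% of all genes without aspartate, 0.315% with Grin2d silenced and 1.41% with Dhps silenced. At an unadjusted p under 0.05 the members were 0, 1 and 0, beside 871 (4.91%), 1955 (11.0%) and 2833 of the 17757 genes. The largest was Ep300, with 14.9, 19.8, 28.6 and 30.4 CPM in ASP shSCR and 35.9, 26.1, 30.5 and 36.4 in ASP shGRIN2D, a difference of -0.45 (SE 0.21, adjusted p = 0.405) that was -0.28 without ASP shSCR replicate 1. Crtc1 had 38.91 to 44.74 CPM in ASP shSCR and 32.12 to 38.86 in NoASP shSCR, so that the groups nearly met. It was the only member without overlap in its comparison (0.25, adjusted p = 0.848), beside 3.33% of all genes. No member was free of overlap with ASP shGRIN2D or with ASP shDHPS, beside 5.47% and 9.29%.

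Polysomal levels also gave 0 of 8 calls in each comparison, beside 0.00%, 0.0169% and 0.169% of all genes, and 1, 1 and 2 members at an unadjusted p under 0.05, beside 7.75%, 9.06% and 16.4%. DESeq2 called 0 members in either fraction. Creb1 had 43.6, 59.8, 51.9 and 49.1 polysomal CPM in ASP shSCR and 27.0, 41.0, 31.9 and 41.8 in ASP shDHPS. The groups did not overlap, beside 5.25% of all genes (against NoASP shSCR and ASP shGRIN2D 0 members were free of overlap, beside 1.37% and 2.60%), and the difference of 0.59 (SE 0.24, 95% interval 0.08 to 1.09) had an adjusted p of 0.232. Atf1 differed by 0.66 in the same comparison (adjusted p = 0.248), and by 0.40 without ASP shSCR replicate 1. From NoASP shSCR and ASP shGRIN2D it differed by 0.49 and 0.37, and by 0.22 and 0.11 without that library. Crtc2 differed by 1.00 from NoASP shSCR, 0.88 from ASP shGRIN2D and 0.85 from ASP shDHPS, with unadjusted p of 0.0244, 0.0443 and 0.0511. Without ASP shSCR replicate 1 these were -0.04, -0.13 and -0.17, so that the Crtc2 differences rested on that library. In the same library Prkaca, the catalytic subunit of protein kinase A, had 533 polysomal CPM beside 46.8 to 74.5 in the other 15.

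Genes that CREB is known to induce were read as a list of 18 (Areg, Bcl2, Bdnf, Ccna2, Dusp1, Egr1, Fos, Fosb, Gem, Junb, Nr4a1, Nr4a2, Nr4a3, Pde4d, Per1, Ppargc1a, Rgs2 and Sik1), all in the table. Nr4a3 and Ppargc1a, with means of 4.41 and 2.63 counts per library, were too sparse to compare, so that the absence of a call says nothing of them. In none of the 3 comparisons of the ratio did any of the 18 pass, with medians of -0.16, -0.10 and -0.19 beside -0.02, -0.01 and 0.01 over all genes. The sub-polysomal and polysomal levels gave 0 calls against NoASP shSCR and ASP shDHPS and 1 lower call each against ASP shGRIN2D, the same gene. Over all genes 0.00% were called against NoASP shSCR in both fractions. Against ASP shGRIN2D 0.315% were called in sub-polysomal and 0.0169% in polysomal level, and against ASP shDHPS 1.41% and 0.169%. Neither fraction therefore gave a call with aspartate against without it, and the list's median difference there was 0.09 sub-polysomal and -0.02 polysomal.

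The gene called was Rgs2, a regulator that shortens G protein signalling. Its sub-polysomal level was 5.73, 4.06, 6.41 and 5.75 CPM in ASP shSCR and 15.8, 11.7, 9.47 and 10.0 in ASP shGRIN2D. Its polysomal level was 11.6, 8.91, 16.2 and 10.9 CPM in ASP shSCR and 30.3, 35.6, 36.4 and 28.0 in ASP shGRIN2D. The groups did not overlap in either fraction, beside 5.47% (sub-polysomal) and 2.60% (polysomal) of all genes. Rgs2 in NoASP shSCR (5.67 to 8.64 and 12.7 to 18.1 CPM) and ASP shDHPS (5.60 to 8.69 and 14.0 to 21.4 CPM) lay below ASP shGRIN2D. ASP shSCR minus ASP shGRIN2D was -1.10 sub-polysomal (SE 0.22, adjusted p = 0.0159) and -1.38 polysomal (SE 0.21, adjusted p = 0.027). The sub-polysomal call was lost without ASP shSCR replicate 2 (-0.99) or ASP shGRIN2D replicate 1 (-0.92), and the polysomal one without ASP shSCR replicate 2 (-1.25) or 4 (-1.32), without ASP shGRIN2D replicate 1 (-1.40) or 3 (-1.32), or with the 2 conditions fitted alone (-1.44, adjusted p = 0.233). The direction was the same in each of these fits. In the same comparison of sub-polysomal levels 1 of 6 epithelial markers was called, beside 0.315% of all genes. It was called in the opposite direction (median of the 6, 0.71), and the part of these markers in the Rgs2 difference was not tested.

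Within a condition the responsive genes lay on both sides. Junb, Gem and Rgs2 were called higher on polysomes in all 4 conditions and Nr4a1 lower in all 4, beside 15.0% and 14.2% of all genes. Junb, a leucine zipper factor of the AP-1 complex, had log2 ratios of 1.05, 1.25, 1.28 and 1.62 in the 4 conditions as ordered above. Gem, a small GTPase, had 1.57, 1.63, 1.59 and 1.46. Nr4a1, an orphan nuclear receptor and immediate early gene, had -1.12, -0.75, -1.04 and -0.88.

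Of 20 kinases that phosphorylate CREB or act just above it, 19 were in the table (Camk2a was not), Prkar1b with a mean of 2.47 counts per library. None passed in the ratio comparisons, beside 0.00%, 0.00% and 0.208% of all genes. Among the 6 level comparisons 1 gene passed, in a comparison where 1.41% of all genes were called. It was Rps6ka2, an RSK kinase, with 137, 101, 134 and 116 sub-polysomal CPM in ASP shSCR and 85.1, 78.4, 60.3 and 71.5 in ASP shDHPS. The groups did not overlap, beside 9.29% of all genes. The difference was 0.72 (SE 0.17, adjusted p = 0.0276), and the call was lost without ASP shSCR replicate 1 (0.67) or 3 (0.68) and without ASP shDHPS replicate 2 (0.76), 3 (0.63) or 4 (0.71). In the same comparison 3 of 6 epithelial markers were called higher too (median 0.64), whose part in the Rps6ka2 difference was not tested. Within a condition, 6 of the kinase genes were lower on polysomes in all 4 conditions (Prkaca, Prkar2a, Camk1, Camkk2, Rps6ka2 and Rps6ka4) and 2 were higher (Prkar1a and Camk1d), beside 14.2% and 15.0% of all genes. Subunits of protein kinase A thus lay on both sides, with log2 ratios in NoASP shSCR of -2.13 for Prkaca and 1.64 for Prkar1a, a regulatory subunit.

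The 7 regulators of the CRTC proteins, salt-inducible kinases and calcineurin subunits, gave 0 calls between conditions in the ratio and in both fractions. Their largest differences were those of 2 calcineurin catalytic subunits, Ppp3cc (1.20 in polysomal level, ASP shSCR minus ASP shDHPS, adjusted p = 0.15; 0.57 without ASP shSCR replicate 1) and Ppp3cb (0.61 in ratio, same conditions, adjusted p = 0.292; 0.40 without ASP shSCR replicate 2). Of 14 related leucine zipper genes with CREB or ATF names, 13 were in the table (Creb3l1 was not) and 0 were called between conditions. Crebzf had the largest difference, 1.28 in polysomal level against ASP shDHPS (adjusted p = 0.208), which was -0.05 without ASP shSCR replicate 1. Atf2 followed with 0.99 in ratio against ASP shDHPS (adjusted p = 0.124), and DESeq2 called it at 0.94 (adjusted p = 0.0401). Within a condition, Atf2, Atf4, Atf5, Crebl2 and Crebzf were lower on polysomes in all 4 conditions, as Atf1 was, and Creb3, Atf6 and Atf6b were higher in all 4, so that 5 and 3 of the 13 were called, beside 14.2% and 15.0% of all genes.

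The 7 other nuclear acetyltransferases gave 0 calls between conditions, with Kat6a at 0.70 in ratio (adjusted p = 0.173) and Kat6b at 0.68 in polysomal level (adjusted p = 0.141), both ASP shSCR minus ASP shDHPS. Kat5, Kat7 and Kat8 were higher on polysomes in all 4 conditions and Kat2b lower, or 3 and 1 of the 7, beside 15.0% and 14.2% of all genes. Of 7 NMDA receptor subunits only Grin1, Grin2d and Grin3b were in the table, and 0 were called. Grin1 and Grin3b had means of 0.97 and 0.72 counts per library, too few to compare.

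Dohh (ENSMUSG00000078440) had 122 ± 11.7 sub-polysomal CPM per kilobase of median transcript length in ASP shSCR (SD, n = 4) and 66.2 ± 6.37 per kilobase of the longest transcript. Its ratio differed by -0.23 from NoASP shSCR, -0.29 from ASP shGRIN2D and -0.52 from ASP shDHPS (adjusted p = 1, 1 and 0.373), and the last of these was -0.06 with the length and GC trend removed. Without ASP shSCR replicate 1 the 3 differences were -0.025, -0.11 and -0.33. Its polysomal level was 61.7, 110, 99.2 and 102 CPM in ASP shSCR and 176, 106, 140 and 122 in ASP shDHPS, a difference of -0.50 (adjusted p = 0.222). Its sub-polysomal levels differed by 0.20 (0.11 to 0.33 with 1 library left out), 0.15 (0.061 to 0.271) and -0.03 (-0.079 to 0.030). Neither the level of Dohh within a fraction nor its ratio passed the test in any comparison. Within ASP shDHPS alone its ratio of 0.45 (adjusted p = 0.043) was called higher. By quantitative PCR the study found more Dohh mRNA in spheroids with aspartate, a rise that Grin2d silencing abolished. Total mRNA was not measured in these libraries, and a level within 1 fraction is not a like measure.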

How the data were processed

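Counts per gene for 32 libraries were deposited by the authors as whole-number counts. Per the study's methods and the submitters' processing notes, paired reads were trimmed with Trim Galore 0.6.6, checked with FastQC 0.11.9, mapped to GRCm39 with STAR 2.6.1 and quantified with Salmon 1.4.0, and the estimates were rounded and genes without counts in most replicates removed. The deposited tables of the authors' own DESeq2 (version 1.34.0) fold changes and enrichment results were not used. Depth was 12870563 to 25639437 counts per library.

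Groups followed the sample labels. The members and lists were chosen with earlier results of these data known. Tests used edgeR 4.0.16 in R 4.3.3 (quasi-likelihood F-test, two-sided, TMM normalization, no filter beyond the authors', Benjamini-Hochberg adjustment over 17757 genes, threshold 0.05). Ratios were fitted over all 32 libraries with 1 term per pellet, which pairs its fractions, and 1 polysomal term per condition, and levels over the 16 libraries of a fraction. The 4 replicates of a condition are separate pellets; where they share a culture, p-values measure only the spread between pellets. Pellet ratios are log2 CPM with a prior count of 2. Alternatives included DESeq2 1.42.0, other normalizations, a minimum of 10 counts in every library and leaving out each pellet or library. The smooth length and GC trend (mgcv 1.9.3) used lengths of GENCODE M21 (GRCm38), matched for 97.5% of genes, and coordinates are those of GRCm38, not of the authors' build. The correlation of pellet ratios with GC content was added after the values were seen. Genes named from a list are those that passed in a comparison (3 at most per direction) or, for a list with none, the 2 with the largest difference at a mean of at least 50 counts. Others named within a condition were chosen after their values were seen. The fits were tested on simulated data in which 200 genes were changed by 1.585 on the log2 scale, up or down. For the ratio against ASP shDHPS, edgeR recovered 176 of the 200, with 14 false calls. Smaller changes, such as those of the members between conditions, were not simulated.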

Additional observations from a re-analysis of the deposited data

Results flagged for a closer look

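Among 96 groups of 4 values of the members (ratio and both levels, by condition), 6 had a value far from the other 3 by Dixon's test at the 95% level, and chance alone gives about 1 in 20, or 4.8. In ASP shDHPS replicate 1, Creb1 had a sub-polysomal level of 6.61 log2 CPM (the others 5.92 to 5.94) and Atf1 a log2 ratio of -2.26 (the others -1.06 to -1.04). The polysomal level of Crebbp was 5.08 log2 CPM in NoASP shSCR replicate 1 (the others 4.29 to 4.42) and 3.29 in ASP shGRIN2D replicate 2 (the others 4.78 to 4.89). In that same library Ep300, the paralogue of Crebbp, was at 4.24 log2 CPM (the others 5.22 to 5.24). Crtc2 was at 7.30 log2 CPM in the polysomal library of ASP shSCR replicate 1 (the others 5.17 to 5.26), the library that stood between the fractions.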

How the results depend on the processing

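No member was called between conditions under any alternative that was tested; removal of the length and GC trend gave values without a test. Every call of a member within a condition held in the alternatives read for it, which were DESeq2's size factors, DESeq2, at least 10 counts, no pellet term and 1 pellet left out. TMM within each fraction and the replicate block were read only for the comparisons between conditions. How many of all genes were called did depend on the setting. For the ratio against ASP shDHPS (37 genes) it was 0 with DESeq2's size factors, 184 with TMM within each fraction, 664 with DESeq2, 266 with at least 10 counts in every library, 0 without the pellet term, 0 with the 2 conditions alone and 0 to 159 with 1 pellet left out. With DESeq2, 1 gene was called in each fraction against NoASP shSCR, 231 (56) in sub-polysomal and 69 (3) in polysomal level against ASP shGRIN2D, and 652 (251) and 554 (30) against ASP shDHPS. The polysomal count against ASP shGRIN2D was also 7 with DESeq2's size factors, 6 with at least 10 counts and 0 with the conditions alone, and that against ASP shDHPS was 1 alone. With 1 library left out, the sub-polysomal counts were 23 to 62 and 80 to 370, and the polysomal ones 0 to 98 and 0 to 304.

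The replicate number was not taken to pair samples across conditions, since no such pairing is stated and not every same-numbered pair had a correlation over 0.1. This rule does not exclude an effect shared by same-numbered samples, and more genes were called with a replicate block in the comparisons given below. Ratio deviations of same-numbered pellets had a median correlation of 0.17 (-0.27 to 0.67, 14 of 24 over 0.1), and of others -0.05. For sub-polysomal levels it was 0.25 (-0.31 to 0.47, 18 of 24) beside -0.076, and for polysomal levels 0.36 (-0.23 to 0.75, 16 of 24) beside -0.11. With it as a replicate block, 231 genes were called for the ratio against ASP shDHPS, 195 and 758 in sub-polysomal level against ASP shGRIN2D and ASP shDHPS, and 27 and 405 in polysomal level, with no member among them.

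Small values without a call changed sign. Ep300 within ASP shDHPS was -0.031 with DESeq2's size factors and with DESeq2, -0.069 with at least 10 counts and -0.019 without the pellet term. Without that term, Crem, Ep300 and Crtc1 within ASP shGRIN2D were 0.030, 0.021 and 0.036. Crebbp in ratio against ASP shGRIN2D was 0.048 with TMM within each fraction and 0.028 with at least 10 counts, and in polysomal level 0.012 with the replicate block. Creb1 in polysomal level against ASP shGRIN2D was -0.002 with DESeq2's size factors and DESeq2, -0.001 with at least 10 counts and -0.038 with the conditions alone. The causes were not tested.

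With 1 pellet or library left out, ranges that crossed 0 were as follows. Within ASP shSCR they were -0.421 to 0.045 (Creb1) and -0.12 to 0.24 (Crebbp), and within NoASP shSCR -0.158 to 0.034 (Crem). Within ASP shGRIN2D they were -0.46 to 0.28 (Crem), -0.120 to 0.090 (Ep300) and -0.30 to 0.16 (Crtc1), and within ASP shDHPS -0.12 to 0.26 (Crem), -0.22 to 0.12 (Ep300) and -0.40 to 0.10 (Crtc1). Ratios against NoASP shSCR ran from -0.10 to 0.32 (Creb1) and -0.29 to 0.54 (Crtc2), against ASP shGRIN2D from -0.024 to 0.414 (Creb1), -0.073 to 0.641 (Crem), -0.25 to 0.14 (Crebbp) and -0.19 to 0.63 (Crtc2), and against ASP shDHPS from -0.078 to 0.302 (Crem) and -0.37 to 0.46 (Crtc2). Sub-polysomal levels ran from -0.242 to 0.085 (Ep300) against NoASP shSCR. Against ASP shGRIN2D they ran from -0.186 to 0.013 (Atf1), -0.15 to 0.20 (Crem), -0.294 to 0.070 (Crebbp) and -0.11 to 0.13 (Crtc2), and against ASP shDHPS from -0.037 to 0.143 (Atf1), -0.287 to 0.040 (Ep300), -0.120 to 0.037 (Crtc1) and -0.079 to 0.030 (Dohh). Polysomal levels ran from -0.132 to 0.041 (Creb1), -0.20 to 0.20 (Crebbp), -0.17 to 0.14 (Crtc1), -0.042 to 1.227 (Crtc2) and -0.030 to 0.147 (Dohh) against NoASP shSCR. Against ASP shGRIN2D they ran from -0.15 to 0.22 (Creb1), -0.28 to 0.15 (Crebbp), -0.311 to 0.074 (Ep300), -0.13 to 1.11 (Crtc2) and -0.145 to 0.059 (Dohh), and against ASP shDHPS from -0.17 to 1.08 (Crtc2) and -0.053 to 1.587 (Crebzf). In the ratio the low end of Crtc2 in each comparison was the fit without ASP shSCR replicate 1. The lowest counts in a library were 42 for Crem and 21 for Grin2d.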
